A study of Mus musculus with 4 samples.

Results

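The genes described here are 9 metabolic genes that mouse hepatocytes next to the central vein are known for: Glul, Oat, Rhbg, Slc1a2, Slc1a4, Cyp2e1, Cyp1a2, Gulo and Lhpp. They were chosen by symbol, with earlier results of these data known, and found by Entrez gene number. All 9 were among the 17543 genes of the deposited tables and had enough reads to be tested. RNA was sequenced from 2 livers of C57BL/6 mice homozygous for the K307R point mutation of Ezh2 and from 2 livers of wild-type (WT) C57BL/6 mice. The Ezh2 protein is the methyltransferase of Polycomb repressive complex 2, which places a silencing mark on histone H3. The question here is how the mutation and the levels of pericentral transcripts go together. Sex, age and collection time are not in the labels. Nor do they state that replicate livers are from different animals, and p values therefore reflect only how these samples vary, which may be technical variation. A bulk liver sample also mixes all zones of the lobule, so that fewer pericentral hepatocytes and less RNA per such cell cannot be told apart.

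Blood crosses the liver lobule from the portal vein to the central vein, and hepatocytes along this path divide the work between them. WNT ligands from the endothelium of the central vein act through beta-catenin in the neighbouring hepatocytes, and Glul, Oat, Rhbg, Slc1a2 and Cyp2e1 are known to depend on that signal. Ammonium that escapes the urea cycle of the periportal cells is captured there by glutamine synthetase. The same cells carry much of the cytochrome P450 oxidation of drugs and solvents.

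Positions are those of RefSeq's annotation of GRCm38.p6, the same assembly as the mm10 build named in the submitters' processing notes. Glul lies on chromosome 1 (153899929 to 153909723), Slc1a2 on chromosome 2 (102658239 to 102790784), Rhbg on chromosome 3 (88242874 to 88254739), Cyp1a2 on chromosome 9 (57676937 to 57683655), Slc1a4 on chromosome 11 (20302180 to 20332713) and Gulo on chromosome 14 (65986786 to 66009254). The remaining 3 are on chromosome 7: Oat (132557475 to 132576398, minus strand), Lhpp (132610615 to 132706420, plus strand) and Cyp2e1 (140763819 to 140774990). No gene of the count tables overlapped any of the 9. RefSeq's promoter table for GRCm38.p6 matched 6 of them (Glul, Oat, Slc1a2, Slc1a4, Cyp2e1 and Cyp1a2), and the 250 bases before the transcript start are shown for 3. Oat is shown as a gene that rose in the mutants and Cyp2e1 as the most abundant of the 9. Slc1a2 is shown as the promoter that held the exact TCF/LEF letters searched, a site of the factors that beta-catenin joins. Capitals mark matches to the motifs searched on both strands, which were TCF/LEF (CTTTGAT), the HNF1 half-site (GTTAAT), the E-box (CACGTG) and the TATA box (TATAAA), none overlapping another.
Oat, chr7:132576399-132576648, minus strand: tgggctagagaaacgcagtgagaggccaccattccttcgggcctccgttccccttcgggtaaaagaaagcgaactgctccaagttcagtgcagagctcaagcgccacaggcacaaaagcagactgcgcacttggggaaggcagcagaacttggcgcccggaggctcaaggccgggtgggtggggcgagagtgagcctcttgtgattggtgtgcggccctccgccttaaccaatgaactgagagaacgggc
Cyp2e1, chr7:140763569-140763818, plus strand: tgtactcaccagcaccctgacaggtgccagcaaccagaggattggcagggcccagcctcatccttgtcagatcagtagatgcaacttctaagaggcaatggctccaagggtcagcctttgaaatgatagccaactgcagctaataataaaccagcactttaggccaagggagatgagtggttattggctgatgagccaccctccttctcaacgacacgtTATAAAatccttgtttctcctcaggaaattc
Slc1a2, chr2:102706188-102706437, plus strand: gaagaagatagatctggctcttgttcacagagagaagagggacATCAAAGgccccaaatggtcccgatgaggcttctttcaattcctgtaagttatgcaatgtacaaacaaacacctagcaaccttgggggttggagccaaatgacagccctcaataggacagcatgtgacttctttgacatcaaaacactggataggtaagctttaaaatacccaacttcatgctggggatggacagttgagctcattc

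The TCF/LEF letters stood in 1 of the 6 promoters, that of Slc1a2, from -207 to -201 relative to the start and on the opposite strand, and in 3.23% of 27025 promoters of the same length. The Slc1a2 window precedes a start inside the annotated gene and not its first base. The TATA box stood in 2 of the 6, from -31 to -26 in Cyp2e1 and from -29 to -24 in Cyp1a2, against 12.97% of all promoters. The HNF1 half-site and the E-box stood in 0 of the 6, against 6.52% and 6.05% of all promoters. These matches describe exact letters only, so a promoter without a match can still hold a variant of the same site. Windows of this length also leave out distal enhancers.

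Libraries held 18602928 and 18749610 expected counts in the mutant livers and 19289715 and 20044832 in the WT livers. Of 12837 genes tested, 178 (1.39%) were higher and 189 (1.47%) lower in the mutants (quasi-likelihood test of edgeR, Benjamini-Hochberg adjusted p under 0.05), or 188 higher and 124 lower with total-count scaling. An exact permutation test over 4 livers cannot give a p under 0.333, so the fit across all genes is the test used throughout. Ezh2 itself was at 3.0 ± 0.630 CPM (counts per scaled library of 1e+06 reads) in the mutants and 3.64 ± 0.405 CPM in the WT (SD, n = 2 each). Albumin, the leading hepatocyte transcript, was at 98489 and 102760 CPM in the mutant livers and at 101891 and 105307 CPM in the WT livers. The genotypes also differed in sex-chromosome transcripts. Xist was at 327 and 573 CPM in the mutant livers, against 0.347 and 0.284 CPM in the WT livers, and Ddx3y was at 0 and 0 CPM in the mutant livers, against 67.6 and 52.4 CPM in the WT livers. The clock gene Arntl was at 12.3 and 23.7 CPM in the mutant livers, against 1.10 and 1.18 CPM in the WT livers. Genotype, sex-chromosome pattern and clock state coincide in all 4 livers and cannot be told apart in any result below.

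Among the 9 genes, 2 rose in the mutant livers, Oat and Lhpp, and 7 did not pass the test. None fell by edgeR, DESeq2 or limma-voom (0 each). At an unadjusted edgeR p under 0.05, 0 were lower and 4 higher, where 2158 of all 12837 genes tested were under it in either direction. The median log2 fold change of the 9 was 0.58, against 0.01 over all genes tested, and it was 0.14 without mutant liver 2 and 1.23 without WT liver 1. The 2 rises are 22.2% of the 9, against 1.39% of all genes tested, and 3 of the 9 (Oat, Lhpp and Cyp2e1) were higher in both mutant livers than in either WT liver, against 25.2% of all genes tested. Without mutant liver 2, 0 of the 9 were called, where 0.882% of all genes were called higher. The log2 fold change was then 1.54 for Oat (edgeR adjusted p = 0.0877) and 1.12 for Lhpp (0.0917). Both calls were also lost with the replicate number as a block (edgeR adjusted p = 0.0743 for Oat and 0.0543 for Lhpp) and on both FPKM scales. Without WT liver 1, 4 were called, with Cyp2e1 and Slc1a2 added (edgeR adjusted p = 0.0141 for Cyp2e1 and 0.0441 for Slc1a2), where the share of all genes called higher was 2.45%. Without WT liver 2 or mutant liver 1 the count was 2, where 2.3% and 1.26% of all genes were called higher.

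**Figure D1:**
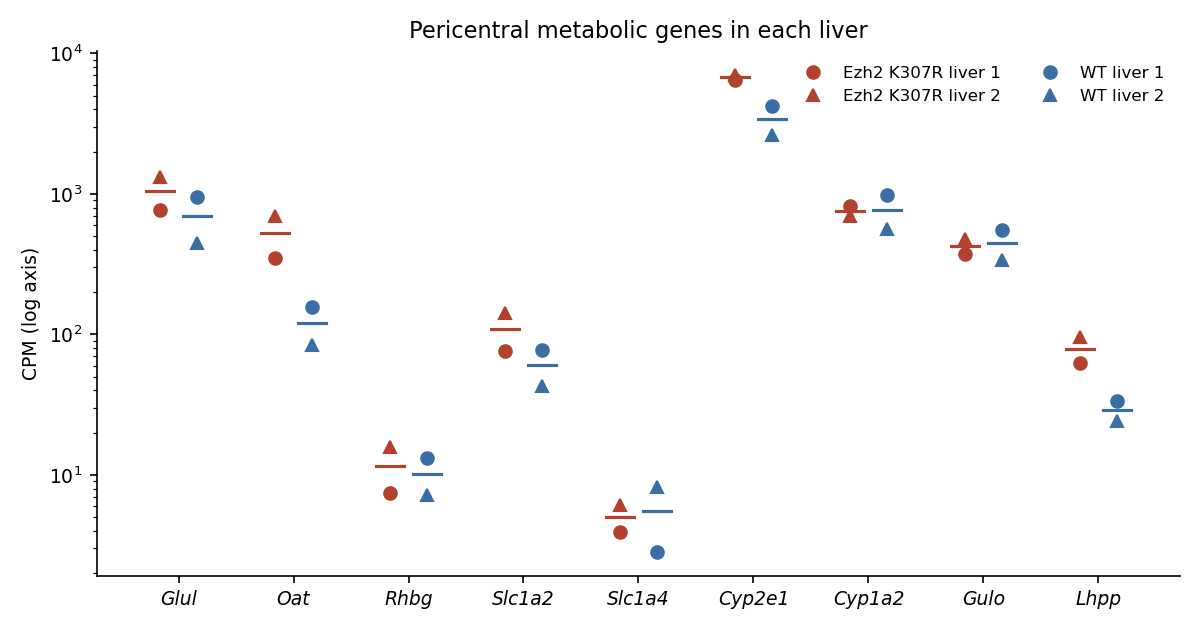
CPM of the 9 genes (log axis) in the Ezh2 K307R livers (red, left) and the WT livers (blue, right), with liver 1 as a circle, liver 2 as a triangle and the mean of each genotype as a bar. Oat, Cyp2e1 and Lhpp are higher in both mutant livers than in either WT liver, and the genotypes overlap in the other 6 genes.

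Ammonium is bound in pericentral cells by Glul, the glutamine synthetase that joins it to glutamate. Glul was at 770 and 1324 CPM in the mutant livers, against 952 and 447 CPM in the WT livers. The genotypes overlapped, as WT liver 1 lay above mutant liver 1, with means of 1047 ± 392 CPM in the mutants and 699 ± 357 CPM in the WT (SD, n = 2 each). Glul did not pass the test, at a log2 fold change of 0.58 (SE 0.41, 95% interval -0.37 to 1.53, edgeR adjusted p = 0.537). It was 0.14 without mutant liver 2, 0.13 without WT liver 2 and 1.23 without WT liver 1, and none of these passed the test.

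Slc1a2, the high-affinity glutamate transporter that supplies substrate to glutamine synthetase, was at 76.3 and 143 CPM in the mutant livers, against 77.9 and 43.0 CPM in the WT livers. Mutant liver 1 and WT liver 1 were nearly level, and mutant liver 2 was the highest. This gave a log2 fold change of 0.86 (SE 0.36, 95% interval 0.02 to 1.70, edgeR adjusted p = 0.286). On the authors' FPKM scale, which divides by transcript length and depth, the genotypes did not overlap, with 14.0 and 26.6 FPKM in the mutant livers and 12.3 and 7.16 FPKM in the WT livers, as in 29.0% of all genes tested. Slc1a2 was the only member with several transcripts listed. The transcript of 10998 bases held 75.7% and 75.4% of its reads in the mutant livers and 77.0% and 80.8% in the WT livers. The short transcript of 2127 bases held 24.3% and 23.5% in the mutant livers and 23.0% and 18.1% in the WT livers. The remaining transcript, of 11571 bases, held 0% and 1.06% in the mutant livers and 0% and 1.07% in the WT livers, and had reads in liver 2 of each genotype only. Reads of transcripts that share exons are divided by estimate.

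Rhbg, the ammonium transporter of the cell membrane, was a low transcript with 139 and 309 reads in the mutant livers and 228 and 151 reads in the WT livers. This made 7.37 and 15.8 CPM in the mutant livers, against 13.2 and 7.15 CPM in the WT livers. The genotypes interleaved, with the lowest and the second highest value in the WT. Rhbg had a log2 fold change of 0.19 (SE 0.41, 95% interval -0.75 to 1.14, edgeR adjusted p = 0.860), and it turned to -0.46 without mutant liver 2 and to -0.19 without WT liver 2.

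Oat is the ornithine aminotransferase of mitochondria, which turns ornithine toward glutamate and so feeds the same glutamine pathway. It had 6630 and 13584 reads in the mutant livers, against 2729 and 1782 reads in the WT livers. In scaled terms it was at 352 and 695 CPM in the mutant livers, against 158 and 84.4 CPM in the WT livers. The means were 523 ± 243 CPM in the mutants and 121 ± 52.0 CPM in the WT (SD, n = 2 each). The lower mutant liver lay above the higher WT liver, although livers of 1 genotype differed by 1.98 times in the mutants and 1.87 times in the WT. Oat rose by 2.11 (SE 0.41) on the log2 scale, a 4.32-fold difference with a 95% interval from 2.22 to 8.40 (edgeR adjusted p = 0.0426), the largest fold change of the 9. On log2(FPKM + 1) the log2 difference was 2.16 and the limma adjusted p was 0.0566.

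Slc1a4, an exchanger of alanine, serine and cysteine, was the lowest of the 9, with 74 and 119 reads in the mutant livers and 49 and 174 reads in the WT livers. It was at 3.93 and 6.09 CPM in the mutant livers, against 2.84 and 8.24 CPM in the WT livers. Both mutant livers lay between the WT livers. Its log2 fold change was -0.15 (SE 0.48, 95% interval -1.27 to 0.96, edgeR adjusted p = 0.911), and it was 0.82 without WT liver 2 and 0.13 without mutant liver 1.

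Cyp2e1, the cytochrome P450 that oxidises ethanol and paracetamol, was the most abundant of the 9, with 0.654% and 0.737% of all reads in the mutant livers and 0.376% and 0.279% in the WT livers. It was at 6454 and 7066 CPM in the mutant livers, against 4194 and 2647 CPM in the WT livers. The genotypes did not overlap, and the mutant livers were closer to each other than the WT livers were, with means of 6760 ± 433 CPM in the mutants and 3420 ± 1094 CPM in the WT (SD, n = 2 each). Cyp2e1 had a log2 fold change of 0.98 (SE 0.31), a 1.98-fold difference with a 95% interval from 1.2 to 3.24, and it did not pass edgeR's test over all genes (adjusted p = 0.158). DESeq2 called it (adjusted p = 0.00915), in a test that called 2.94% of all genes higher.

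Cyp1a2, the P450 of caffeine oxidation and a target of the aryl hydrocarbon receptor, was at 826 and 696 CPM in the mutant livers, against 980 and 560 CPM in the WT livers. The mutant livers lay between the WT livers. For Cyp1a2 the log2 fold change was -0.02 (SE 0.31, 95% interval -0.74 to 0.71, edgeR adjusted p = 0.988), and its sign changed with the scaling. Cyp2e1 and Cyp1a2 each had 1 transcript listed but fractional expected counts, so that some of their reads were divided with other genes. The counts of the other 6 members with 1 transcript were whole in every liver.

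Gulo, the gulonolactone oxidase that makes vitamin C in the mouse, was at 374 and 475 CPM in the mutant livers, against 554 and 339 CPM in the WT livers. The mutant livers again lay between the WT livers. For Gulo the log2 fold change was -0.07 (SE 0.30, 95% interval -0.76 to 0.61, edgeR adjusted p = 0.934), with a sign that changed with the scaling.

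Lhpp, a phosphatase that acts on phosphohistidine, had 1183 and 1876 reads in the mutant livers, against 576 and 515 reads in the WT livers. It was at 62.8 and 96.0 CPM in the mutant livers, against 33.3 and 24.4 CPM in the WT livers. Both mutant livers were above both WT livers, with means of 79.4 ± 23.5 CPM in the mutants and 28.9 ± 6.33 CPM in the WT (SD, n = 2 each). Lhpp rose by 1.46 (SE 0.27) on the log2 scale, a 2.75-fold difference with a 95% interval from 1.80 to 4.22 (edgeR adjusted p = 0.0346). On log2(FPKM + 1) the log2 difference was 1.47 and the limma adjusted p was 0.052.

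**Figure D2:**
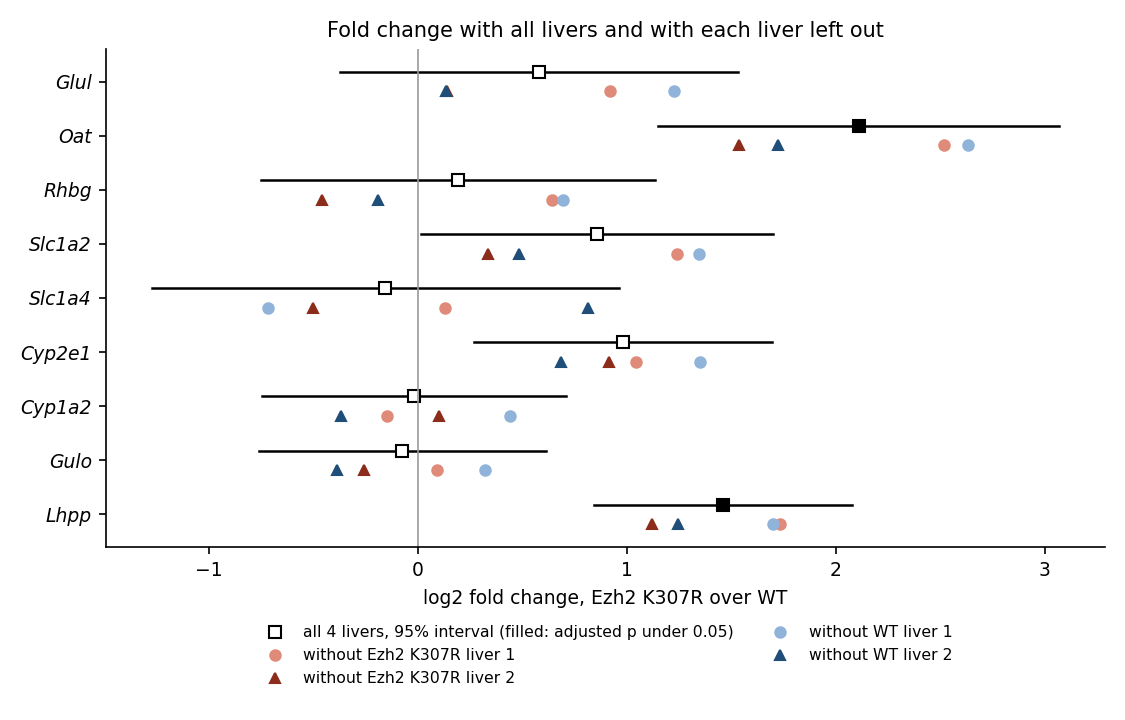
The log2 fold change of each gene, Ezh2 K307R over WT, with all 4 livers (squares with the 95% interval, filled where the edgeR adjusted p is under 0.05) and with each liver left out (circles without liver 1, triangles without liver 2, red for mutant and blue for WT livers). Glul, Oat, Slc1a2, Cyp2e1 and Lhpp stay above 0 whichever liver is left out, while Rhbg, Slc1a4, Cyp1a2 and Gulo fall on both sides of 0.

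The livers of 1 genotype differed widely in most of these genes. WT liver 2 was the lowest of the 4 livers in 8 of the 9 genes, against 24.9% of all genes tested, and Slc1a4, highest there, was the exception. Mutant liver 2 was the highest in 6 of the 9, against 27.1% of all genes. Between the mutant livers the log2 difference, liver 2 over liver 1, ran from -0.25 in Cyp1a2 to 1.10 in Rhbg, and it was 0.13 in Cyp2e1. The median absolute difference over all genes above 0 in every liver was 0.26, more than in Cyp2e1 and Cyp1a2. Between the WT livers the log2 difference, liver 1 over liver 2, ran from -1.54 in Slc1a4 to 1.09 in Glul, with a median absolute difference over all genes of 0.28. The summed level of the 9 genes was 8926 and 10518 CPM in the mutant livers, against 6964 and 4161 CPM in the WT livers, and most of it was Cyp2e1.

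Set against Glul within each liver, a ratio that no scaling of libraries alters and that was chosen after the values were seen, the genes had the following levels. Oat was at 60.1% and 69.0% of Glul's FPKM in the mutant livers, against 21.8% and 24.8% in the WT livers, a ratio of means of 2.77. Lhpp was at 14.5% and 12.9% in the mutant livers, against 6.21% and 9.67% in the WT livers. Slc1a2 was at 5.11% and 5.48% in the mutant livers, against 4.11% and 4.32% in the WT livers, a ratio of means of 1.26. Rhbg was at 1.42% and 1.77% in the mutant livers, against 2.06% and 2.37% in the WT livers, and Gulo was at 60.7% and 44.9% in the mutant livers, against 72.7% and 94.9% in the WT livers. In Oat, Lhpp and Slc1a2 both mutant ratios were above both WT ratios, in Rhbg and Gulo both were below, and in Cyp2e1, Cyp1a2 and Slc1a4 the genotypes overlapped. Over all genes tested the ratio to Glul was without overlap and higher in 2.0%, and lower in 22.7%. Glul, the denominator of each ratio, itself differed by 1.72 times between the mutant livers and 2.13 times between the WT livers, and the ratios were not tested.

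**Figure D3:**
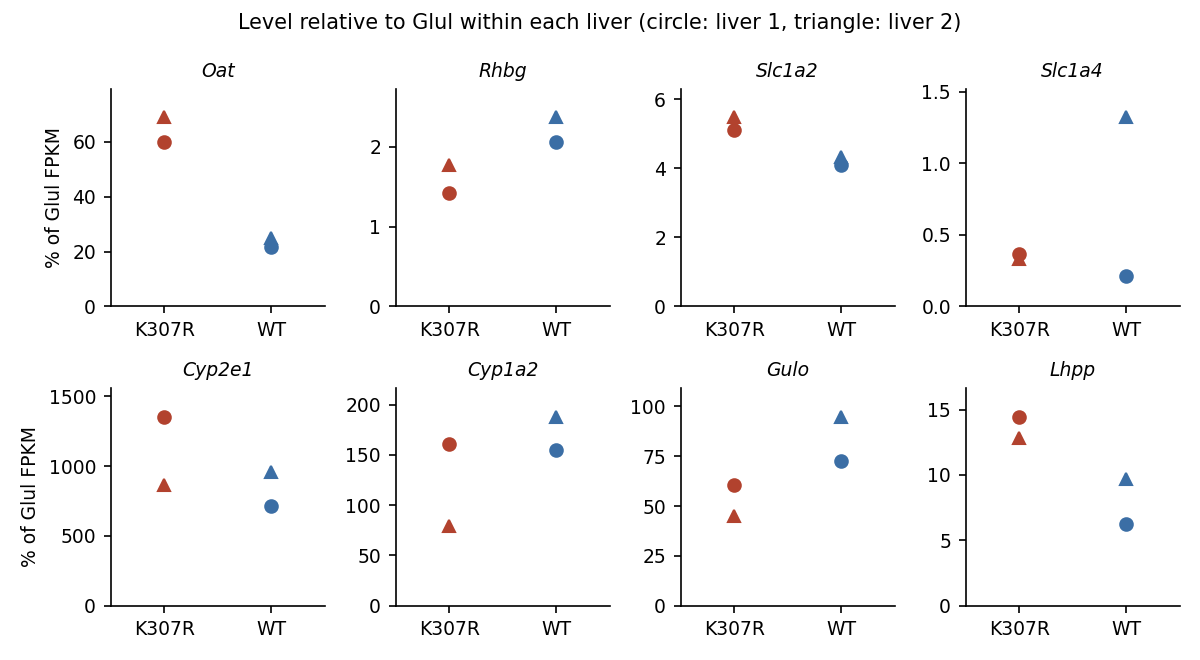
FPKM of 8 genes as a percentage of Glul's FPKM in the same liver (linear axes from 0), for the Ezh2 K307R livers (red, left) and the WT livers (blue, right), with liver 1 as a circle and liver 2 as a triangle. Oat is at 60.1% and 69.0% in the mutant livers and at 21.8% and 24.8% in the WT livers, with little spread within a genotype.

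Levels can be compared between genes on the FPKM scale, which is per length. In the mutants the mean level ran from Cyp2e1 (3956 FPKM) through Cyp1a2 (413), Glul (380), Oat (250.03), Gulo (192), Lhpp (51.1), Slc1a2 (20.3) and Rhbg (6.26) to Slc1a4 (1.30). In the WT it ran from Cyp2e1 (1861 FPKM) through Cyp1a2 (387), Glul (233), Gulo (188), Oat (53.2), Lhpp (17.3), Slc1a2 (9.74) and Rhbg (5.05) to Slc1a4 (1.42). Oat and Gulo changed places. Gulo and Oat overlapped in the mutants (166 and 218 FPKM for Gulo, 165 and 335 for Oat), whereas in the WT livers Gulo (218 and 157 FPKM) stood above Oat (65.4 and 41.1). Cyp1a2 and Glul, and Glul and Oat, also overlapped in the mutants, as did Glul and Gulo in the WT, and the other neighbours in each order were apart.

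The genes that rose are neighbours on chromosome 7. Oat and Lhpp are transcribed away from each other, and 34216 bases separate their annotated bounds. The annotation places 2 genes between them, the homeobox gene Nkx1-2, which was at 0 and 0.0512 CPM in the mutant livers and 0 and 0 CPM in the WT livers, and a pseudogene that the tables do not list. Within 500000 bases on either side, 6 other genes were tested and 0 were called by edgeR, DESeq2 or limma-voom. By edgeR, 2.86% of all genes tested were called in either direction. At an unadjusted edgeR p under 0.05 there were 2 of the 6, against 2158 of all 12837 genes tested. The log2 fold changes of the 6 ran from -0.50 in Zranb1, a deubiquitinase gene, to 0.89 in Chst15, a sulfotransferase gene. Their median was 0.13 and their smallest edgeR adjusted p was 0.228. Fam53b, the next tested gene beyond Lhpp, had 0.57 (edgeR adjusted p = 0.314). Cyp2e1, on the same chromosome, lies outside this window.

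**Figure D4:**
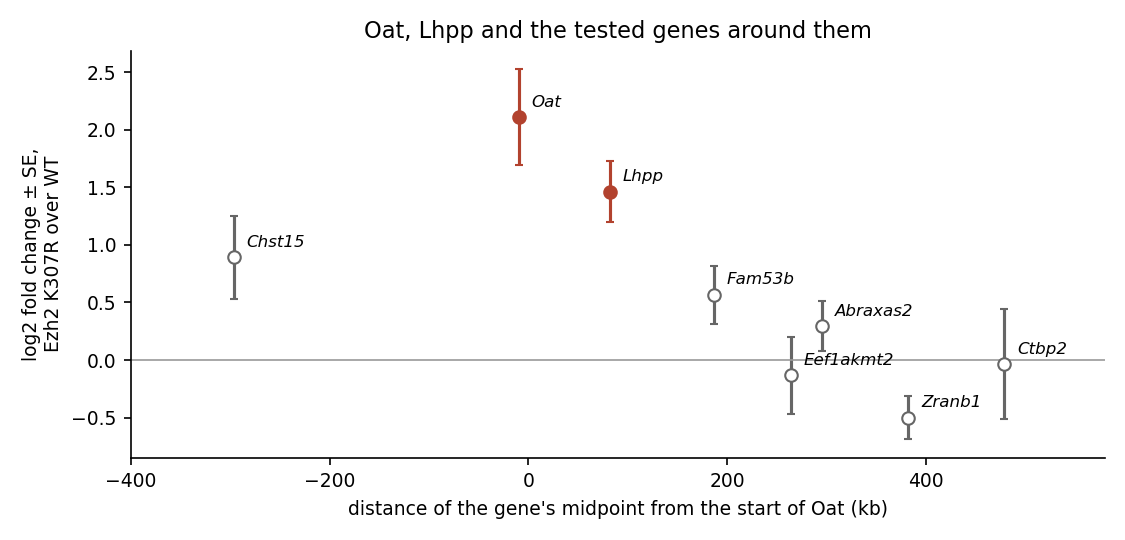
The log2 fold change, Ezh2 K307R over WT, with its SE, of each tested gene around Oat and Lhpp, by the distance of the gene's midpoint from the start of Oat in kilobases (filled where the edgeR adjusted p is under 0.05). Oat (2.11) and Lhpp (1.46) stand above the 6 other genes, which lie between -0.50 and 0.89.

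Of 36 other genes known for pericentral expression, 31 had a positive log2 fold change, against 51.1% of all genes tested, few of them past the test. This list and the lists below were chosen with earlier results of these data known. By edgeR 4 of the 36 rose (11.1%, against 1.39% of all genes tested) and 32 did not pass. DESeq2 called 11 higher, in a test that called 2.94% of all genes higher. By limma-voom 2 were called higher, against 153 of all 12837 genes tested. Of the 36, 24 were higher in both mutant livers than in either WT liver (25.2% of all genes tested were). Their median log2 fold change was 0.68. Cyp2c37, an epoxygenase whose reads may be divided with near-identical Cyp2c copies, rose by 2.50 (SE 0.32, edgeR adjusted p = 0.0105). Tbx3, a T-box repressor of transcription, rose by 2.0 (SE 0.33, edgeR adjusted p = 0.0255), Axin2, a feedback inhibitor of WNT signalling, by 2.41 (SE 0.46, 0.0395), and Nr1i3, the xenobiotic receptor CAR, by 1.2 (SE 0.24, 0.0441). Axin2 had 6.84 and 15.5 CPM in the mutant livers, against 2.72 and 1.51 CPM in the WT livers, and Tbx3 had 23.2 and 42.3 CPM in the mutant livers, against 9.78 and 6.67 CPM in the WT livers. The number that rose depended on single livers, at 2 without mutant liver 2 and 13 without WT liver 1. Axin2 lost its call without mutant liver 2 (edgeR adjusted p = 0.148), and Nr1i3 without it (0.121) or without WT liver 2 (0.0626). Both also lost it with limma-voom, on both FPKM scales and with the replicate block (0.0686 for Axin2 and 0.0519 for Nr1i3), Tbx3 lost it on both FPKM scales, and Cyp2c37 was called in every setting. WT liver 2 was the lowest liver in 26 of these 36 genes too.

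Genes known for periportal expression divided. Of 30, 5 rose (16.7%, against 1.39% of all genes tested), 2 fell (6.67%, against 1.47%) and 23 did not pass, with a median log2 fold change of -0.14 that was 0.02 without WT liver 1. DESeq2 called 8 higher and 2 lower, where it called 378 higher and 386 lower of all 12837 genes tested. The rises were Cyp17a1, a steroid hydroxylase gene (4.25), the lysosomal protease gene Ctsc (1.69), the immunoglobulin receptor gene Pigr (1.40), the steroid dehydrogenase gene Hsd17b6 (1.33) and the glycine decarboxylase gene Gldc (1.18). Mup20, a major urinary protein gene with near-identical copies, fell by 5.0 on the log2 scale, and Cdh1, which encodes E-cadherin, fell by 1.75. Without WT liver 1 the log2 fold change of Mup20 was -3.97, without WT liver 2 it was -5.60, and that of Cyp17a1 without WT liver 2 was 4.87. Without either mutant liver, 3 periportal genes were called higher. WT liver 2 was the lowest in 7 of the 30. The urea cycle genes of this list did not pass, and Cps1, which binds ammonium in periportal cells, was at -0.24 on the log2 scale (edgeR adjusted p = 0.738).

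**Figure D5:**
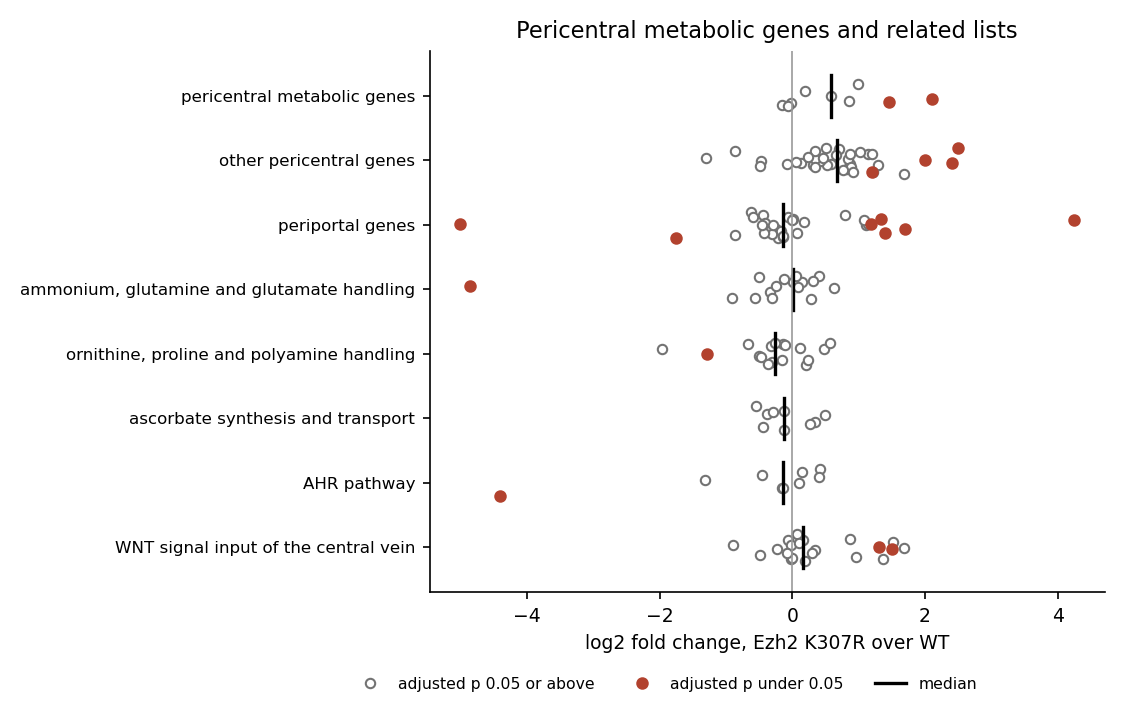
The log2 fold change, Ezh2 K307R over WT, of every tested gene of 8 lists (filled where the edgeR adjusted p is under 0.05), with the list median as a bar. The medians of the 9 pericentral metabolic genes (0.58) and of the 36 other pericentral genes (0.68) lie right of 0, and that of the 30 periportal genes lies at -0.14.

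Few genes of the pathways around single members passed the test. Of 17 tested genes of ammonium, glutamine and glutamate handling, 1 fell (5.88%, against 1.47% of all genes tested) and 16 did not pass (median log2 fold change 0.01). It was Asns, the asparagine synthetase gene, with 5 and 2 reads in the mutant livers against 36 and 185 reads in the WT livers (log2 fold change -4.85, edgeR adjusted p = 0.0303), a value of -3.47 without WT liver 2, -5.54 without WT liver 1 and -5.65 without mutant liver 1, and a call lost without mutant liver 1 (0.0509) or 2 (0.0903), with limma-voom and on both FPKM scales. On log2(FPKM + 1) the log2 difference of Asns was -1.62. Slc38a2, a neutral amino acid transporter gene, had -0.91 (edgeR adjusted p = 0.0764), and Glud1, the glutamate dehydrogenase gene, had 0.63 (0.265). Of 17 genes of ornithine, proline and polyamine handling, 1 fell (5.88%, against 1.47% of all genes tested) and 16 did not pass (median -0.25). It was the spermidine synthase gene Srm (-1.29, edgeR adjusted p = 0.0483), a call lost without WT liver 2 (0.0679), mutant liver 1 (0.153) or mutant liver 2 (0.0823), with upper-quartile (0.0529) or total-count scaling (0.0996), with a filter at 1 CPM (0.0576), with limma-voom and on both FPKM scales. Aldh18a1, which makes the semialdehyde that Oat also yields, had -1.96 (edgeR adjusted p = 0.0719).

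Of 9 tested genes of ascorbate synthesis and transport, 0 were called by edgeR, DESeq2 or limma-voom. Under an unadjusted edgeR p of 0.05 there was 1 (Slc23a1, a vitamin C transporter gene, log2 fold change -0.45), against 2158 of all 12837 genes tested. Of 9 tested genes of the aryl hydrocarbon receptor pathway, 1 fell (11.1%, against 1.47% of all genes tested) and 8 did not pass. It was the glutathione transferase gene Gsta1 (-4.40, edgeR adjusted p = 0.0341), whose value was -2.64 without WT liver 2 and -5.17 without WT liver 1 and whose call was lost without mutant liver 1 (0.0624) or 2 (0.0880), with limma-voom and on both FPKM scales. Ahr itself had 0.42 (edgeR adjusted p = 0.328) and Cyp1a1, the relative of Cyp1a2, had -1.32 (0.262). Of 21 tested WNT ligands, receptors and core pathway genes, 2 rose (9.52%, against 1.39% of all genes tested) and 19 did not pass (median 0.17). The receptor genes Fzd8 (1.5, edgeR adjusted p = 0.0116) and Fzd7 (1.30, 0.0197) rose, and both were still called after any single liver was omitted. Fzd8 was called in every setting, and Fzd7 lost its call on log2(FPKM + 1) (limma adjusted p = 0.0541) and log2(FPKM + 0.1) (0.0508). The stem cell receptor Lgr5 had 1.69 (edgeR adjusted p = 0.118), Ctnnb1, the gene of beta-catenin, had -0.03 (0.971), and the central vein ligand Wnt2 was at 1.01 and 1.79 CPM in the mutant livers, against 0.926 and 0.189 CPM in the WT livers.

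Markers of the other liver cells moved with the genotypes in part. The 6 markers of central vein endothelium, the source of the WNT ligands, summed to 9.13 and 11.5 CPM in the mutant livers and 5.96 and 7.53 CPM in the WT livers, with 0 called by edgeR, DESeq2 or limma-voom and 1 (Rspo3) under an unadjusted p of 0.05. The 9 sinusoidal endothelial markers summed to 128 and 156 CPM in the mutant livers and 93.6 and 126 CPM in the WT livers, and the 8 Kupffer cell markers summed to 384 and 257 CPM in the mutant livers and 203 and 246 CPM in the WT livers. For these lists 0 genes each were called by edgeR, against 3 and 4 at an unadjusted p under 0.05 and 0 and 1 by DESeq2. Of all 12837 genes tested, 2158 were at an unadjusted edgeR p under 0.05 in either direction, and DESeq2 called 378 higher and 386 lower. Of 8 stellate cell markers, Dcn (1.36) and Colec11 (1.5) rose (25.0%, against 1.39% of all genes tested). Col1a1 (-2.48) fell (12.5%, against 1.47% of all genes tested). The stellate sums were 322 and 258 CPM in the mutant livers and 159 and 284 CPM in the WT livers. Dcn and Colec11 lost their calls without mutant liver 1 (edgeR adjusted p = 0.0747 and 0.0814), and Col1a1, at -1.57 without WT liver 2, without mutant liver 2 (0.105). All 3 lost their calls on both FPKM scales, Colec11 (0.0555) and Col1a1 (0.0541) with total-count scaling, Col1a1 with limma-voom, and Dcn (0.0506) and Col1a1 (0.0593) with the replicate block. The 9 hepatocyte markers summed to 144102 and 146847 CPM in the mutant livers and 153944 and 152741 CPM in the WT livers, with 0 called by edgeR, DESeq2 or limma-voom and 0 at an unadjusted p under 0.05. Of 6 red cell markers, 5 were tested and Alas2, a haem synthesis gene, fell (-1.94), a call lost without mutant liver 1 (0.0598) and on both FPKM scales. The other 4, the globin genes Hba-a1 (0.73), Hba-a2 (0.86), Hbb-bs (0.73) and Hbb-bt (0.95), near-identical in pairs, were at an unadjusted p under 0.05 in the higher direction and were not called by edgeR. DESeq2 called 3 genes of the list higher, in a test that called 2.94% of all genes higher. The fall of Alas2 is 20.0% of the 5 tested red cell markers, against 1.47% of all genes tested. The red cell sums were 674 and 770 CPM in the mutant livers and 437 and 553 CPM in the WT livers. The cholangiocyte and the lymphocyte and neutrophil lists had 0 calls by edgeR, DESeq2 or limma-voom, 1 gene each at an unadjusted p under 0.05, and sums that overlapped between the genotypes (32.3 and 60.3 CPM in the mutant livers and 70.6 and 54.5 CPM in the WT livers for cholangiocytes, 18.1 and 10.7 CPM in the mutant livers and 10.8 and 14.2 CPM in the WT livers for lymphocytes and neutrophils). No marker was at 0 in all 4 livers, and the part of these cells in the values of the 9 genes was not tested.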

How the data were processed

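RNA of 4 livers was sequenced, 2 per genotype, and grouped by the labels' titles. Per the submitters' processing notes, HISAT, Bowtie2, RSEM and build mm10 were used. Versions, read length, strand and filters: not given in the sources used here. For each liver the authors deposited expected counts per RefSeq transcript (estimated counts, not normalized, per the file headers) and FPKM values, which the authors normalized for length and depth. Expected counts were summed per gene and rounded, and FPKM summed per gene, with an absent transcript as 0. Symbols came from RefSeq's GRCm38.p6 table by Entrez number (99.8% of 17543 genes).

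Genotypes were compared with the quasi-likelihood test of edgeR 4.0.16 (R 4.3.3, TMM factors, filterByExpr, genotype as the only term) with Benjamini-Hochberg adjustment over 12837 genes and a threshold of 0.05. Standard errors were derived from F values, and CPM use TMM library sizes. On counts simulated for this comparison (12676 genes tested) the fit called 95 of 99 genes changed by 2 on the log2 scale, 95 of 95 changed by 3 and 5 of 12482 unchanged. The simulation gave every gene the same dispersion and held no changes between 0 and 2. It cannot show how often smaller changes, or changes in genes that vary more between livers, are called. Alternatives were scaling by RLE, upper quartile or total count, DESeq2 1.42.0, limma 3.58.1 (voom, or trend applied to log2(FPKM + 1) or log2(FPKM + 0.1)), no filter, a mean of at least 1 CPM, a replicate block, and each liver left out, where the lone liver of a genotype is assumed to vary like the others.

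The 9 members, the 7 related and 8 marker lists and their tests were chosen with earlier results of these data known. The text names all 9, the 4 tested genes with the smallest p of a list where a result turns on them, and checks of sex-chromosome and clock genes. Pigr, Hsd17b6, Gldc, Cps1, Ctnnb1, Hba-a1, albumin and the neighbours of Oat fall outside that rule and were named after their values were seen, and the ratios to Glul were also chosen then. Replicates were not duplicates of a library (mean chi-square 48.3 in the mutants, 88.5 in the WT). Plots used Python 3.11.15 with matplotlib 3.10.9.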

Additional observations from a re-analysis of the deposited data

How the results depend on the processing

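Settings were changed one at a time. The number of the 9 genes called higher was 2, and it was 0 on log2(FPKM + 1) and on log2(FPKM + 0.1), 0 with the replicate block, and 0 to 4 when single livers were left out. The number called lower was 0 in every setting tried. The replicate block (the replicate number as a term) left edgeR adjusted p values of 0.0743 for Oat and 0.0543 for Lhpp. Over all genes, livers with the same number did not deviate together (correlation of deviations -0.0027). This value cannot tell whether the numbers pair livers in a way that affects only some genes. The number of all genes called was 367, against 764 with DESeq2, 163 on log2(FPKM + 1), 161 on log2(FPKM + 0.1), 829 with no filter and 211 to 720 without single livers. In the 7 related lists 16 genes were called, against 29 with DESeq2, 9 on either FPKM scale, 25 with no filter and 9 to 28 without single livers.

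Glul, Oat, Slc1a2, Cyp2e1 and Lhpp kept a positive log2 fold change under all 14 settings. Cyp1a2 (-0.02) changed sign to 0.030 with upper-quartile scaling, 0.029 with limma-voom, 0.034 with the replicate block, 0.090 with total-count scaling and 0.12 on either FPKM scale, and ran from -0.37 to 0.44 without single livers. Gulo (-0.07) changed sign to 0.035 with total-count scaling and 0.042 on either FPKM scale, and ran from -0.39 to 0.32 without single livers. Slc1a4 (-0.15) changed sign to 0.071 on log2(FPKM + 0.1) and ran from -0.72 to 0.82 without single livers, and Rhbg (0.19) ran from -0.46 to 0.70. None of these 4 was called in any setting. The cause of these changes was not tested. Precision rests on 2 livers per genotype, and the lowest counts were those of Rhbg and Slc1a4.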
